A study of Mus musculus with 8 samples.

Results

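The miR-378 family was followed as 5 mature mouse miRNAs, mmu-miR-378a-3p, mmu-miR-378a-5p, mmu-miR-378b, mmu-miR-378c and mmu-miR-378d, which were chosen by their names and are written without the prefix from here on. All 5 were listed in every deposited table, among 1978 mature mouse miRNAs for the C2C12 hairpin libraries, 605 for the ATF4 pair and 696 for the P19 pair. Small RNA was sequenced from C2C12, a mouse skeletal myoblast line, in which a lentiviral hairpin stably targeted Perk (shPerk, also called PERK knockdown) or served as negative control (shNC). These cells were taken undifferentiated (day 0) and once they had spent 3 days in medium for differentiation (day 3). It was also sequenced from C2C12 cells with an ATF4 expression vector, driven by an EF1α promoter, or with the vector control, both kept in growth medium without induction of differentiation. The remaining pair was P19 cells, a line of mouse embryonal carcinoma cells, with shNC or shPerk, for which the labels give neither a day nor an induction state. Each of the 8 conditions had 1 library. Replicates to check a difference against are therefore lacking, and no p-value between conditions is given. PERK is the kinase of the unfolded protein response that leads to translation of the transcription factor ATF4.

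A miRNA gene gives a hairpin whose arms can each yield a mature strand, named 5p and 3p, and the seed (bases 2 to 8) of the strand that is loaded into Argonaute pairs with target mRNAs. miR-378a is known as a miRNA that MyoD induces in differentiating myoblasts, where it represses MyoR, an antagonist of MyoD. Its host gene Ppargc1b encodes PGC-1β, a coactivator of genes of mitochondrial metabolism. mRNA is not measured by these libraries, so neither Myod1 and Ppargc1b nor the targeted Perk and the expressed Atf4 could be checked in them.

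In GENCODE annotation on GRCm38, only Mir378a had Ppargc1b as its host. It lies in an intron of Ppargc1b on the same strand, and the miRNA gene Gm25301 overlaps it on the opposite strand. Mir378b (chr11:88352773-88352864, plus strand) lies in an intron of Msi2 and Mir378c (chr14:46954830-46954928, minus strand) in an intron of Samd4, both opposite to the host's strand. Mir378d (chr10:126710282-126710391, minus strand) overlaps no other annotated gene. The mature sequences of the separately encoded members are shown because they are so alike that their reads are hard to keep apart. They are written 5′ to 3′ from RefSeq on GRCm38.p6, with the seed in capitals, and the mature strands span chr11:88352839-88352858, chr14:46954905-46954925 and chr10:126710355-126710376:
miR-378b: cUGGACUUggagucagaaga
miR-378c: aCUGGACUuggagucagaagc
miR-378d: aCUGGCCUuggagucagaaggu
The stretch cuuggagucagaag, 14 bases long, is common to all of these. Counted from the 5′ end of miR-378c, miR-378d differs by A6C and C21G over 21 compared positions. miR-378b starts 1 base later and differs by C21A alone over the 20 positions it shares with miR-378c. A6C lies within the seed, and the later start of miR-378b shifts its seed by 1 base, so these members have 3 different seeds. miR-378a-3p and miR-378a-5p are named only. How the authors counted a read that fits more than 1 member is not stated. The members had different counts in every library, but reads that end early could have been split between them, and the separate levels of the related 3p members are therefore uncertain.

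The hairpin libraries held 8800977 to 11993448 reads on miRNAs, and the spacing of low values in the RPM tables implies about 4457000 to 12167000 reads. The muscle markers miR-1a-3p, miR-133a-3p and miR-206-3p summed to 3816 to 87478 CPM (counts per 1000000 miRNA reads) in the C2C12 hairpin libraries, and to 2426 and 3734 RPM (reads per 1000000 miRNA reads) in the vector and ATF4 libraries. The 8 pluripotency markers of the miR-302 and miR-290 clusters summed to at most 0.353 CPM in the C2C12 hairpin libraries and were not listed in the ATF4 pair. In P19 cells they summed to 178706 RPM with shNC and 413273 RPM with shPerk, and miR-206-3p was not listed.

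miR-378a-3p was the main product of the family in every library, with 79.2% to 83.6% of the family's reads. Its level in C2C12 cells at day 0 was 28637 CPM with shNC (324229 reads) and 10357 CPM with shPerk (91155 reads). At day 3 it was 31683 CPM with shNC (379993 reads) and 13321 CPM with shPerk (125598 reads). It was at 14133 RPM with the vector and 10387 RPM with ATF4, and at 3372 RPM in P19 shNC cells and 4678 RPM in P19 shPerk cells. The shNC libraries of C2C12 were thus the highest, where it ranked 9 of all miRNAs on both days, and the P19 libraries the lowest, where it ranked 58 and 33. The whole family took 3.51% of miRNA reads in shNC cells at day 0 and 3.79% at day 3, against 1.31% and 1.68% in PERK knockdown cells. It took 1.77% with the vector, 1.27% with ATF4, 0.422% in P19 shNC cells and 0.586% in P19 shPerk cells. The order of these levels runs across tables that were normalized separately. Apart from the C2C12 controls, only the differences within a pair are therefore compared further.

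**Figure D1:**
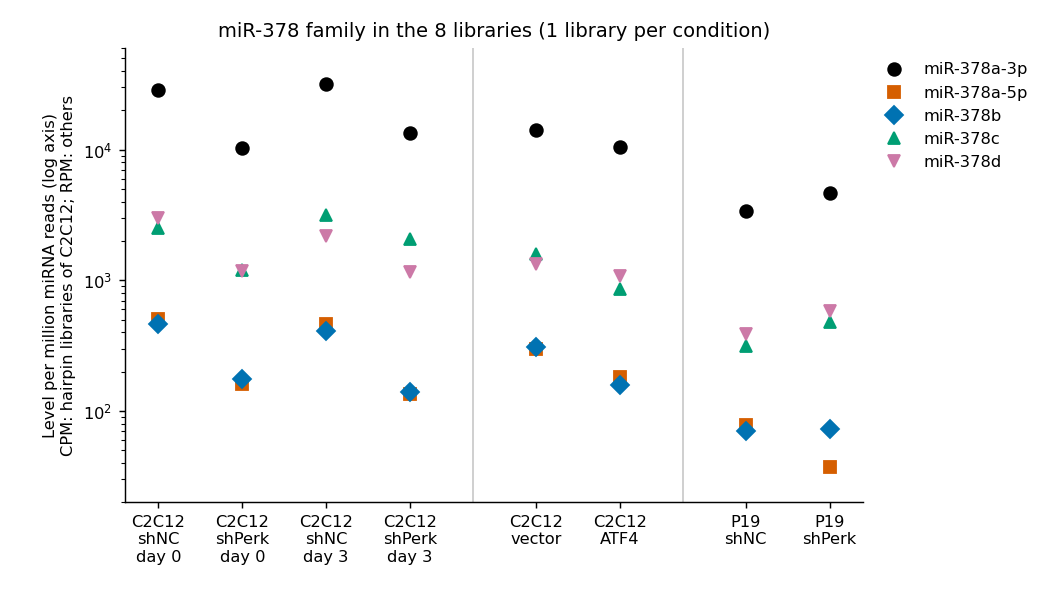
Level of each miR-378 member in the 8 libraries, on a log axis, in CPM for the C2C12 hairpin libraries and RPM for the others; each point is 1 library. miR-378a-3p lies above the other members everywhere, from 3372 RPM in P19 shNC cells to 31683 CPM in shNC cells at day 3.

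The 5p arm and the related members were at lower levels. For miR-378a-5p, the other arm of the same hairpin, 5702 reads were counted with shNC and 1405 with shPerk at day 0, and 5535 and 1267 at day 3. It was at 299 RPM with the vector, 182 RPM with ATF4, 78.5 RPM in P19 shNC cells and 37.5 RPM in P19 shPerk cells. miR-378b was close to it in level, with 5228 reads (shNC) and 1541 reads (shPerk) at day 0, then 4933 and 1311. Its levels were 310 RPM with the vector, 159 RPM with ATF4, and 70.6 and 72.9 RPM in P19 shNC and shPerk cells. The levels of miR-378b and miR-378a-5p were farthest apart, as a ratio, in the P19 knockdown library. miR-378c had 28590 reads with shNC and 10573 with shPerk at day 0, and 37796 and 19411 at day 3. It was at 1574 RPM with the vector, 856 RPM with ATF4, and 314 and 483 RPM in P19 shNC and shPerk cells. For miR-378d the counts were 33766 (shNC) and 10364 (shPerk) before differentiation, then 26067 and 10913. It was at 1337 RPM with the vector, 1086 RPM with ATF4, and 388 and 584 RPM in P19 shNC and shPerk cells. The highest value of miR-378c was that of shNC cells at day 3, whereas the highest value of miR-378d was that of shNC cells at day 0.

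Every member was lower in PERK knockdown myoblasts before differentiation. The log2 fold changes given here were scaled with edgeR's TMM factors for each pair of libraries. A member was said to rise or fall when its log2 fold change was beyond 1, a limit on size and not a test between conditions. The 95% intervals (Clopper-Pearson) were computed from the reads and hold counting error alone. Even that may be understated, because no molecular identifiers that would mark reads copied by PCR are described for these libraries. At day 0, 4 of the 5 members fell, while 20.3% of the 602 miRNAs tested did (122 lower and 94 higher). The members resemble each other in sequence, and the arms of miR-378a come from 1 hairpin, so these are not 4 independent observations. miR-378a-5p fell most, its log2 fold change being -1.52 (95% interval -1.61 to -1.44), followed by miR-378a-3p with -1.33 (-1.34 to -1.32). miR-378b had -1.27 (-1.35 to -1.18) and miR-378d -1.21 (-1.24 to -1.18). miR-378c had -0.94 (-0.97 to -0.91), within the limit. The median of the members was -1.27, against -0.06 for all miRNAs. In linear terms, miR-378a-3p was 2.52-fold and miR-378c 1.92-fold lower in knockdown cells. The undifferentiated C2C12 controls of this study also differed from each other. miR-378a-3p was 2.03-fold higher in the shNC library of day 0 than in the vector library, and the other members 1.49-fold to 2.23-fold higher. These controls carry different constructs, and their tables were normalized separately. Their muscle markers differed as well, with miR-206-3p at 18280 CPM (shNC) and 2351 RPM (vector), and miR-1a-3p at 220 CPM and 6.42 RPM. The gap may therefore mix construct, cell state and table, and is not a measure of the spread between libraries alone. In CPM, the gaps between shNC and shPerk cells at day 0 were 2.76-fold for miR-378a-3p and 2.10-fold to 3.15-fold for the other members.

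The difference after 3 days of differentiation was of the same direction for all members but less even. At day 3, 2 of the 5 members fell, where 23.0% of the 575 miRNAs tested did, a count too small to set the family apart. Over all miRNAs, 132 were lower and 126 higher, and scaling to the total counts, which moved the median of all miRNAs from 0.01 to -0.32, gave 166 lower and 93 higher. For miR-378a-5p the log2 fold change was -1.45 (95% interval -1.54 to -1.36), and for miR-378b it was -1.23 (-1.32 to -1.14). miR-378a-3p had -0.92 (-0.93 to -0.91), and passed the limit when scaled by total counts (-1.25) or by upper-quartile factors (-1.03). miR-378d had -0.58 (-0.61 to -0.54) and miR-378c -0.28 (-0.31 to -0.26). The members that were lowest in abundance thus had the larger differences. miR-378c and miR-378d lay in the middle 50% of all miRNAs, at percentiles 38.6 and 30.8 counted from the lowest.

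The knockdown difference was smaller at day 3 than at day 0 for the abundant members. The log2 fold change of day 3 less that of day 0 was 0.66 for miR-378c (95% counting interval 0.62 to 0.70), 0.63 for miR-378d (0.59 to 0.68) and 0.42 for miR-378a-3p (0.40 to 0.43). For miR-378a-5p it was 0.08 (-0.05 to 0.20) and for miR-378b 0.03 (-0.09 to 0.15), which counting error alone does not tell from 0. With total-count scaling the value of miR-378a-3p was 0.22, and those of miR-378a-5p and miR-378b turned to -0.12 and -0.17. Each pair had its own TMM factors, so the same libraries paired by day give other values, which the intervals do not allow for. From day 0 to day 3, miR-378a-3p had 0.41 in shNC and 0.72 in shPerk cells, a smaller gap. There miR-378a-5p had 0.14 and 0.11, and miR-378b 0.10 and 0.03, gaps of the opposite direction. No test between conditions is possible for this difference with 1 library each.

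**Figure D2:**
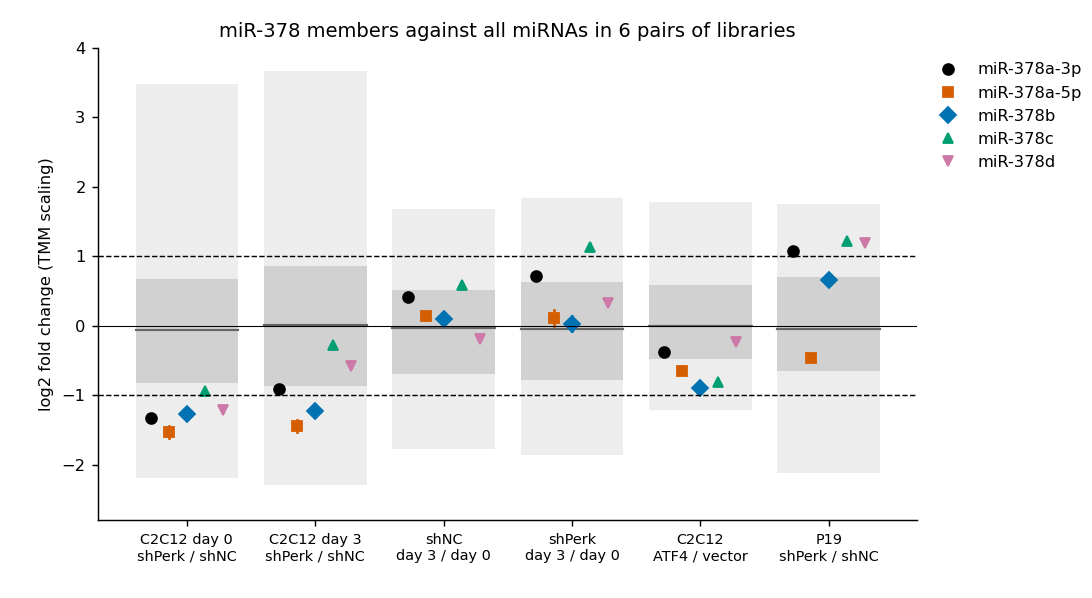
Log2 fold change (TMM scaling) of each member in the 6 pairs of libraries, with 95% counting intervals where counts were deposited. The grey line, dark box and light box are the median, the middle 50% and the middle 90% of all miRNAs tested, and the dashed lines mark the limit of 1; all members lie below 0 in the knockdown pairs of C2C12 and in the ATF4 pair.

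The time pairs address how the family differed as the cells differentiated. From day 0 to day 3 in shNC cells, 0 of 5 members passed the limit in either direction, where 29.0% of the 593 miRNAs tested did (74 higher and 98 lower, or 51 and 140 with total-count scaling). On the log2 scale miR-378c differed by 0.59 (95% interval 0.56 to 0.61), miR-378a-3p by 0.41 (0.40 to 0.42), miR-378a-5p by 0.14 (0.09 to 0.19) and miR-378b by 0.10 (0.04 to 0.16). miR-378d had -0.19 (-0.21 to -0.17). The directions of miR-378a-5p and miR-378b turned with total-count scaling, to -0.13 and -0.17, so no direction is given for them. In PERK knockdown cells, 1 of 5 members rose from day 0 to day 3, where 16.9% of the 573 miRNAs tested rose (97 higher and 97 lower, or 58 and 161 with total-count scaling). This was miR-378c, with 1.14 (1.10 to 1.17), or 0.78 with total-count scaling. miR-378a-3p had 0.72 (0.71 to 0.73) and miR-378d 0.33 (0.29 to 0.37), the latter turning to -0.02 with total-count scaling. miR-378a-5p had 0.11 (-0.00084 to 0.22) and miR-378b 0.03 (-0.08 to 0.13). The time pairs and the knockdown pairs share libraries and are not independent of each other.

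All members were lower in the library with ATF4 than in that with the vector, within the limit. The log2 fold change was -0.90 for miR-378b, -0.81 for miR-378c, -0.65 for miR-378a-5p, -0.38 for miR-378a-3p and -0.24 for miR-378d. This pair and the P19 pair were deposited in RPM, so no counting interval is given for them. Thus 0 of 5 passed it, where 23.5% of all 605 miRNAs did (88 higher and 54 lower). The members' median was -0.65 against -0.00387 for all miRNAs. Upper-quartile scaling brought the median of all miRNAs to -0.38, with 53 higher and 124 lower, and then 3 members passed the limit: miR-378b with -1.28, miR-378c with -1.19 and miR-378a-5p with -1.03. The ATF4 pair and the knockdown pairs of C2C12 share no library, and every member had a log2 fold change below 0 in all 3 pairs. Of all miRNAs, 307 of 605 lay below 0 with ATF4, 313 of 602 on knockdown at day 0 and 286 of 575 at day 3. How many lay below 0 in all 3 pairs at once was not counted, and the knockdown pairs come from the same hairpin lines. The shared direction therefore has no background to be set against. With ATF4, miR-378a-3p and miR-378d lay in the middle 50% of all miRNAs, at percentiles 29.6 and 36.4 counted from the lowest. The members are alike in sequence, so their directions are not independent observations.

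In P19 cells the knockdown pair ran the other way for the 3p members. miR-378c had a log2 fold change of 1.23, miR-378d of 1.19 and miR-378a-3p of 1.08, and these 3 of 5 members rose, where 17.7% of the 696 miRNAs tested did (123 higher and 123 lower). miR-378b had 0.65 and miR-378a-5p -0.46. This count depended on the scaling. The RPM values themselves, without TMM factors, gave 46 miRNAs higher and 247 lower and a median of -0.65 for all miRNAs. On that scale miR-378c had 0.62, miR-378d 0.59, miR-378a-3p 0.47 and miR-378b 0.05, and miR-378a-5p, with -1.07, was the member beyond the limit. The pluripotency markers, whose summed levels are given above, together took more of the reads in the knockdown library. miR-302b-3p went from 76522 to 180818 RPM, miR-302d-3p from 42087 to 129217 RPM and miR-302a-3p from 17713 to 54730 RPM. The miR-290 cluster was mixed. miR-295-3p went from 20160 to 18752 RPM and miR-290a-3p from 33.1 to 25.35 RPM, whereas miR-291a-3p, miR-292a-3p and miR-294-3p were higher. The part of these markers in the values of the miR-378 members was not tested. The direction of each miR-378 member held under every scaling run, though for miR-378b hardly any difference was left without TMM factors. In RPM, miR-378a-5p rested on about 621 reads in shNC cells and about 167 reads in shPerk cells by the step of the low values.

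The ratio between members of the same library does not depend on scaling and showed where the family moved apart. The 3p arm of miR-378a exceeded the 5p arm 56.9-fold in shNC cells at day 0, 64.9-fold in shPerk cells at day 0, 68.7-fold in shNC cells at day 3 and 99.1-fold in shPerk cells at day 3. In the ATF4 pair it was 47.3-fold with the vector and 57.0-fold with ATF4. In P19 cells it was 43.0-fold with shNC and 125-fold with shPerk, the largest gap of the 6 pairs. The 5p arm made up 1.73% of the reads of both arms in shNC cells at day 0 (95% Clopper-Pearson interval 1.68% to 1.77%) and 0.999% in shPerk cells at day 3 (0.945% to 1.05%), against 2.27% and 0.795% in P19 shNC and shPerk cells. On the log2 scale the ratio was higher by 0.19 on knockdown at day 0 (95% interval of the exact conditional odds ratio 0.11 to 0.28), by 0.53 at day 3 (0.44 to 0.62) and by 1.54 in P19 cells. It was also higher by 0.27 in differentiation of shNC cells (0.22 to 0.33), by 0.61 in that of shPerk cells (0.50 to 0.72) and by 0.27 with ATF4. The 5p arm thus made up a smaller part in the second library of each of the 6 pairs, of which the hairpin pairs share libraries.

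Among the related members, miR-378c gained on miR-378a-3p in the knockdown and the differentiation pairs of C2C12 cells, which share libraries. miR-378a-3p exceeded miR-378c 11.3-fold in shNC and 8.62-fold in shPerk cells at day 0, and 10.1-fold and 6.47-fold at day 3. The log2 ratio of miR-378c to miR-378a-3p was higher by 0.40 on knockdown at day 0 (95% interval 0.36 to 0.43) and by 0.64 at day 3 (0.61 to 0.66), and higher by 0.15 in P19 cells. With ATF4 it fell by 0.43. It was also higher by 0.17 in differentiation of shNC cells (0.15 to 0.20) and by 0.41 in that of shPerk cells (0.38 to 0.45). For miR-378d the ratio was higher on knockdown by 0.13 at day 0 (0.09 to 0.16), 0.34 at day 3 (0.31 to 0.37) and 0.12 in P19 cells, and by 0.14 with ATF4. It fell by 0.60 in differentiation of shNC cells and fell by 0.39 in that of shPerk cells. For miR-378b the ratio changed by 0.07 on knockdown at day 0 (-0.02 to 0.15), which counting error does not tell from 0. It fell by 0.31 on knockdown at day 3 (interval of the change -0.40 to -0.23), fell by 0.52 with ATF4 and fell by 0.43 in P19 cells. Its largest shift was in differentiation of shPerk cells, where it fell by 0.70 (interval of the change -0.80 to -0.59), and in that of shNC cells it fell by 0.31 (-0.37 to -0.26). Since the sequences above share most of their bases, these shifts are of counts as assigned by the authors.

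**Figure D3:**
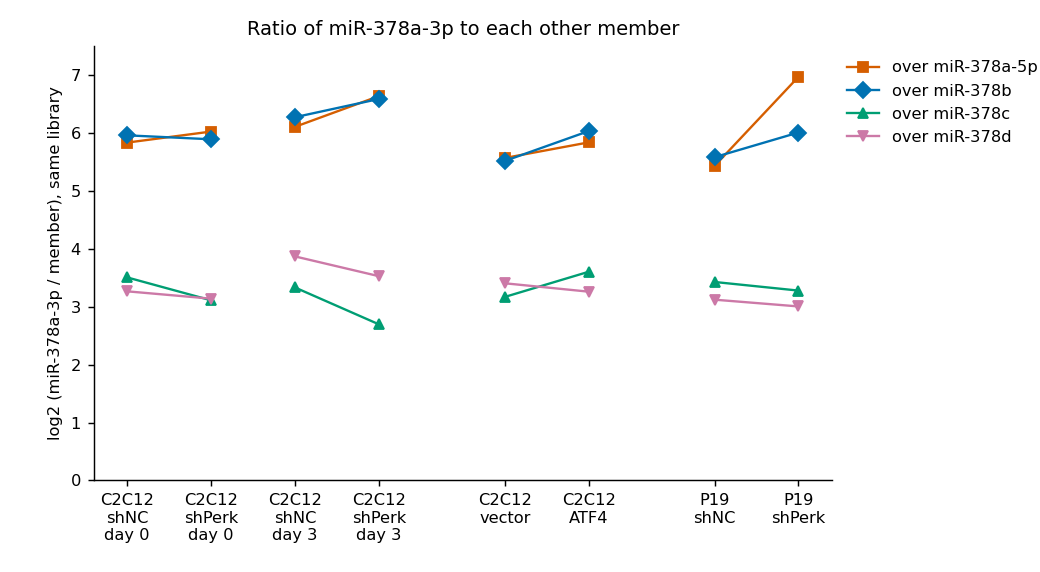
Log2 ratio of miR-378a-3p to each other member in the same library, with a line joining the libraries of each pair; 1 library per point and no scaling between libraries. The ratio to miR-378a-5p goes from 5.43 to 6.96 in P19 cells, and the ratio to miR-378c is lowest, 2.69, in shPerk cells at day 3.

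The family was set beside 8 muscle miRNAs, a list of miR-1a-3p, miR-133a-3p, miR-133b-3p, miR-206-3p, miR-499-5p, miR-208b-3p, miR-486a-5p and miR-486b-5p, which are enriched in striated muscle. miR-486a-5p and miR-486b-5p had identical values in every library, so the same reads were counted for both. The counts and medians of the list still hold them as separate entries. In differentiation of shNC cells, 6 of the 8 rose and 0 fell, where 74 of all 593 miRNAs rose and 98 fell. The median log2 fold change of the list was 2.76, or 2.24 with low counts set to 3 reads, against 0.14 for the miR-378 members. miR-1a-3p, which is hardly made in proliferating myoblasts, had 6.56 there, and miR-486a-5p, with 0.54, lay among the miR-378 members. For miR-208b-3p, made from a myosin heavy chain intron, the shNC libraries held 0 and 12 reads in turn, too few for a fold change. On knockdown at day 3, 7 of the 8 fell, where 23.0% of all miRNAs did, and the list's median was -2.31 against -0.92 for the miR-378 members. The 7 include miR-208b-3p, which had 2 reads left. At day 0, 5 of the 7 tested fell, where 20.3% of all miRNAs did, and the list's median was -2.11 against -1.27. With ATF4, 3 of 7 rose, miR-499-5p among them from a listed value of 0, and 2 fell, where 88 of all 605 miRNAs rose and 54 fell. The 2 that fell were miR-486a-5p and miR-486b-5p with -1.12 each, from the same reads. miR-1a-3p rose by 5.40, from 6.42 to 259 RPM. In P19 cells, 3 of the 6 that were listed rose, where 17.7% of all miRNAs did, and 0 fell. These were miR-1a-3p, from 21.2 to 69.6 RPM, miR-133a-3p, from 12.1 to 25.6 RPM, and miR-133b-3p, which rested on about 9 and 8 reads. Without TMM factors 2 of the 6 passed the limit, miR-133b-3p lay within it (0.65) and miR-499-5p turned from 0.48 to -0.13.

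**Figure D4:**
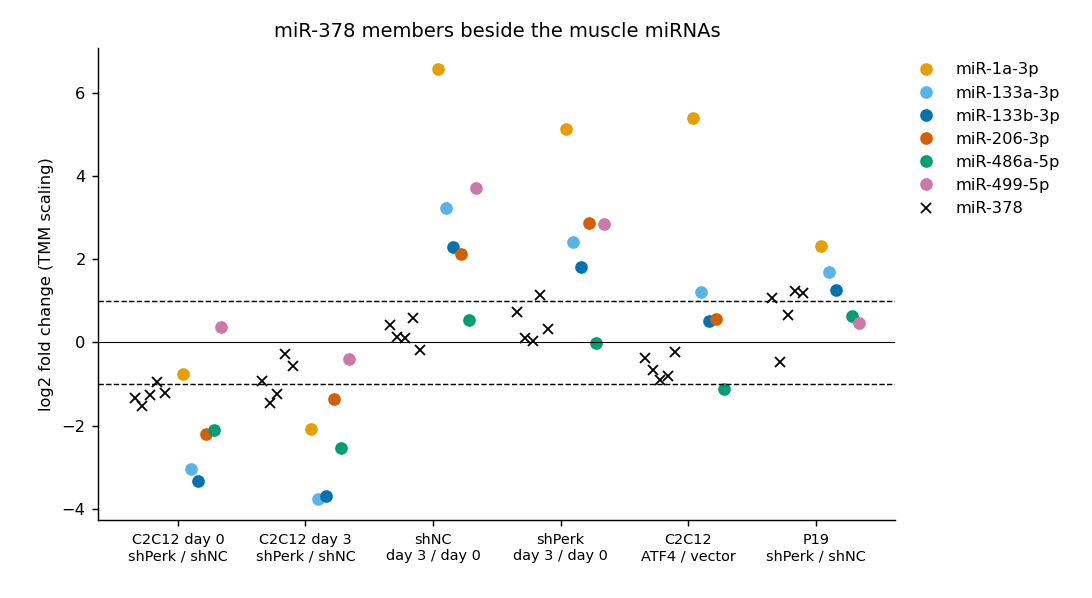
Log2 fold change (TMM scaling) of the 5 miR-378 members (crosses) and of muscle miRNAs (coloured points) in the 6 pairs of libraries, 1 library per condition; miR-486b-5p equals miR-486a-5p and is left out, as are miR-208b-3p and values listed at 0. The miR-378 members stay between -0.19 and 0.59 in differentiation of shNC cells, where miR-1a-3p reaches 6.56.

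The miRNAs most like miR-378a-3p across the 8 libraries were sought among the 266 whose mean level reached 10 CPM or RPM in each set of libraries. Likeness was the Pearson correlation of log2 levels after the mean of each set was subtracted, which is a description over 8 libraries that share cell lines and scaling. miR-532-5p was first (r = 0.97), followed by miR-486a-5p and miR-486b-5p (0.93 each), miR-188-5p (0.92) and miR-378d (0.92). miR-378b ranked 7 (0.90), miR-378c 9 (0.88) and miR-378a-5p 18 (0.77), the lowest of the family. miR-532-5p had log2 fold changes of -1.86 on knockdown at day 0, -1.04 at day 3, -0.07 in differentiation of shNC cells, 0.64 in that of shPerk cells, -0.75 with ATF4 and 1.29 in P19 cells. miR-188-5p had -2.20, -2.11, 0.12, 0.10, -0.10 and 0.68 in the same order.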

How the data were processed

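Total RNA was extracted with TRIzol, and 1 small RNA library was made per condition. The authors had linkers ligated to both RNA ends, reverse-transcribed, amplified and gel-selected the product, and annotated reads with bowtie (mm10). The bowtie version, the miRNA release and the rule for reads matching several miRNAs are not given in the sources used here. The values the authors deposited are raw counts per mature miRNA for the C2C12 hairpin libraries. Libraries present in 2 tables had identical values. For the ATF4 and P19 pairs the authors deposited RPM values, with no value between 0 and 1 RPM. Of RPM values under 60, 92.5% to 95.2% were whole multiples of 1 step per library (tolerance at most 0.062 reads), so depth was estimated from the step and no test on reads was run there. Deposited columns of fold change, p-value and q-value hold the authors' own comparisons and were not used.

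miRNAs with at least 1 CPM or RPM in 1 library of a pair were kept. For counts, log2 fold changes were computed after scaling each pair with edgeR's TMM factors, with a prior count of 0.125 scaled as edgeR does. Where a table held RPM, the factors were taken from the RPM values, a value of 0 became 1 and no prior count was added. The fold limit was 1 on the log2 scale. Factors and fold changes were computed on all miRNAs of a pair that passed the filter, and the code was tested on simulated counts. The members and lists were chosen with earlier results of these data known. The genes named are the 5 members, the muscle list, the markers, and the 5 miRNAs most like miR-378a-3p.

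Alternatives were total, median-of-ratios and upper-quartile scaling, filters of 0 and 10, a prior count of 2, an exact binomial test on reads, edgeR's exact test at assumed coefficients of variation of 0.2 and 0.4, 0.5 RPM for values at 0, a pseudocount of 1 RPM, and summed 3p members. The scaling alternatives for the difference between days were chosen after seeing the data. The tools were R 4.3.3, edgeR 4.0.16, DESeq2 1.42.0, Python 3.11.15, pandas 2.3.3, scipy 1.17.1 and matplotlib 3.10.9.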

Additional observations from a re-analysis of the deposited data

Results flagged for a closer look

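The shPerk libraries differed from their shNC libraries in opposite directions in C2C12 and P19 cells for miR-378a-3p, b, c and d, under every scaling run, and the difference between the lines was not tested. In C2C12 cells, miR-378a-3p had log2 fold changes of -1.33 at day 0 and -0.92 at day 3, against 1.08 in P19 cells. miR-378b had -1.27 and -1.23 against 0.65, miR-378c -0.94 and -0.28 against 1.23, and miR-378d -1.21 and -0.58 against 1.19. Without TMM factors the P19 values were 0.62 for miR-378c, 0.59 for miR-378d, 0.47 for miR-378a-3p and 0.05 for miR-378b. For miR-378b that was 70.6 RPM with shNC and 72.9 RPM with shPerk, so hardly any difference was left. miR-378a-5p was below 0 in both lines.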

How the results depend on the processing

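With 1 library per condition no result has a replicate check, so leaving out a library was not possible. In the C2C12 hairpin pairs the assumed spread decides whether members are called, and no spread was assumed for the ATF4 and P19 pairs. No paired analysis was possible either, because there were no replicates to pair. At an assumed coefficient of variation of 0.4, edgeR's exact test called 0 members at day 3, 0 at day 0 and 0 from day 0 to day 3 in shPerk cells. At 0.2 it called 2, 4 and 1 in the same order, as many as passed the fold limit. Total-count scaling left 0 members beyond the limit from day 0 to day 3 in shPerk cells and 1 in P19 cells, and upper-quartile factors gave 3 in the ATF4 pair. The direction of small differences turned from day 0 to day 3. In shNC cells, miR-378b had -0.036 with a filter of 10 CPM, -0.17 when scaled by total counts and -0.013 by upper quartiles, and miR-378a-5p had -0.13 with total-count scaling. In shPerk cells, total-count scaling gave -0.25 for miR-378a-5p, -0.33 for miR-378b and -0.025 for miR-378d, and upper-quartile factors gave -0.0056 and -0.090 for the first 2. The knockdown difference at day 3 less that at day 0, in the order total, median-of-ratios and upper-quartile scaling, was 0.22, 0.36 and 0.33 for miR-378a-3p, 0.46, 0.60 and 0.57 for miR-378c, and 0.43, 0.57 and 0.54 for miR-378d. miR-378a-5p had -0.12 and -0.014 with total and upper-quartile scaling, and miR-378b had -0.17, -0.023 and -0.057. The cause of these turns is their construction, since another scaling shifts all members of a pair by the same amount. The alternative values within a pair were those of single members and of the summed 3p members, the latter set against miR-378a-3p. Among these, 226 kept their direction and their call, 9 newly passed the limit, 5 came to lie within it and 9 turned. A further 7 kept a fold beyond the limit but lost the call of edgeR's exact test at the assumed coefficient of variation of 0.4. The binomial and exact tests reused the main fold changes, so they could change a call but not a direction. In the ATF4 and P19 pairs, leaving out the filter or setting values at 0 to 0.5 RPM returned the main values of every member. The 226 therefore include values that could not differ, and they do not measure how stable the results are. Without a filter on low counts, on knockdown at day 0 there were 368 lower and 220 higher miRNAs (122 and 94 with it), 359 and 268 at day 3 (132 and 126), 307 and 249 in differentiation of shNC cells (98 and 74) and 254 and 257 in that of shPerk cells (97 and 97). At an assumed coefficient of variation of 0.4, edgeR's exact test left 16 lower and 40 higher at day 0, 13 and 38 at day 3, 0 and 7 in shNC cells, and 0 and 1 in shPerk cells.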

Other observations

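The order of miR-378c and miR-378d differed between libraries. miR-378c was at 0.847 times the level of miR-378d in shNC cells and 1.02 times in shPerk cells at day 0, and at 1.45 and 1.78 times at day 3. With the vector it was at 1.18 times and with ATF4 at 0.788 times the level of miR-378d. In P19 cells it was at 0.809 times with shNC and 0.827 times with shPerk.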
